A study of Mus musculus with 12 samples.

Results

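AMPA and NMDA receptors are the ligand-gated cation channels that carry most fast excitatory transmission in the brain. AMPA receptors are tetramers of the subunits encoded by Gria1 to Gria4, and the presence of an edited Gria2 subunit makes the channel nearly impermeable to calcium. NMDA receptors combine the obligatory Grin1 subunit, which binds glycine, with glutamate-binding Grin2 subunits and, in some receptors, the glycine-binding Grin3a subunit. Grin2b and Grin2d are known for early expression in the brain, and Grin2a rises in forebrain neurons as they mature, so that the Grin2a to Grin2b ratio is widely read as a sign of maturation. The 10 genes described here were taken by symbol and matched to their Ensembl identifiers. They comprise 4 AMPA and 6 NMDA receptor genes among 33560 genes with a count, and all 10 were measured and passed the filter on low counts.

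RNA was measured in glutamatergic neurons differentiated in vitro from mouse embryonic stem cells and harvested on day 21. The genotypes were wild type (WT) and a knockout (KO) of a microexon of Daam1, a formin that nucleates actin filaments, each with 3 labelled cell lines. Cultures of each line received water as vehicle or 10 µM Y-27632, a kinase inhibitor, for 2 h. This gave 4 groups of 3 libraries, named here WT vehicle, KO vehicle, WT inhibitor and KO inhibitor, each with lines 1, 2 and 3. The WT lines carry the label Daam1-MIC_WT, and no other allele, mouse strain or sex is given. Whether the 3 KO lines are separately derived clones is not stated, and the design text of the series speaks of adult hippocampus while every sample label speaks of cultured neurons. The p-values below therefore rest on the spread between these labelled lines. The main gene test, edgeR, fitted a mean for each group and did not pair the vehicle and inhibitor libraries of a line. It shared an estimate of spread over all 12 libraries, so KO inhibitor line 3 enters that spread in every comparison of this fit.

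At the pore residue described here, the coding sequence gives glutamine in the AMPA subunits and asparagine in the NMDA subunits shown. The 8 stretches below are given because they contain the pore residue that sets calcium permeability or magnesium block, and each is 45 bases of the coding strand read from 5′ to 3′ in the GENCODE M21 annotation of GRCm38. Capitals mark the codon at the Q/R site of the AMPA subunits, a glutamine in the genome, and the asparagine codon at the corresponding N site of the NMDA subunits. Grin2b and Grin3a are not shown.
Gria1: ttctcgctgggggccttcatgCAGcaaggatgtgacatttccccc
Gria2: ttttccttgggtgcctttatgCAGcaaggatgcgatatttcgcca
Gria3: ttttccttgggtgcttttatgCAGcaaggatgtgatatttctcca
Gria4: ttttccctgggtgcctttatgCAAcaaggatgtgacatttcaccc
Grin1: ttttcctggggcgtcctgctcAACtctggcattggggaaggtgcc
Grin2a: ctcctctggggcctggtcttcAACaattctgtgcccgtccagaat
Grin2c: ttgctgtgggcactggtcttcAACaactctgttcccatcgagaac
Grin2d: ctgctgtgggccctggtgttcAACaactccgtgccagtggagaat

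The marked codon lies at chr11:57243094-57243096 on the plus strand in exon 11 of 16 for Gria1 and at chr3:80706911-80706913 on the minus strand in exon 11 of 16 for Gria2. It lies at chrX:41610265-41610267 on the plus strand in exon 11 of 16 for Gria3 and at chr9:4464137-4464139 on the minus strand in exon 12 of 17 for Gria4. For the NMDA subunits, all on the minus strand, it lies at chr2:25297386-25297388 in exon 14 of 21 for Grin1, where the 45 bases cross an exon junction. The Grin2a codon is at chr16:9653561-9653563 in exon 8 of 12. The Grin2c codon is at chr11:115253863-115253865 in exon 9 of 13, and the Grin2d codon is at chr7:45854393-45854395 in exon 8 of 12. The glutamine codon is CAG in Gria1, Gria2 and Gria3 and CAA in Gria4. Gria2 and Gria3 are equal at 42 of the 45 bases, and Grin2a and Grin2d at 36. In neurons the Gria2 codon is edited in the RNA by ADAR2, the product of Adarb1, so that it is read as arginine. Counts per gene cannot show the share of edited transcripts.

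Exact sharing of sequence between the members was small. No stretch of 50 bases was shared between annotated transcripts of any pair of members except among Gria2, Gria3 and Gria4. There Gria2 and Gria3 shared 9 different sequences of 50 bases, Gria2 and Gria4 shared 8, and Gria3 and Gria4 shared 4. They were counted at every position, so that sequences from the same run overlap and are not separate stretches. The longest shared runs of these pairs were 56, 55 and 59 bases. The longest run shared by Grin2a and Grin2b was 24 bases, which bears on their ratio. Several members overlap another annotated gene, among them Grin1 with the antisense Grin1os, Grin2d with Kdelr1 and Grin3a with Ppp3r2. The libraries were stranded, and whether the counting used the strand is not stated, so that reads from these overlaps may be split or shared.

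The libraries held 23253566 to 35012561 counts in genes. Daam1 was counted in every library, at 133 to 183 CPM (counts scaled to library size) in WT and 155 to 188 CPM in 5 of the 6 KO libraries, with KO inhibitor line 3 at 67.9 CPM. A count over the whole gene cannot show the loss of a microexon. The library labelled KO inhibitor line 3 stood apart from the other 11: its median correlation with them was 0.854, against 0.953 to 0.986 for the others. Its summed level of 8 pan-neuronal markers was 1526 CPM against 4855 to 6799 in the other 11, while astrocyte markers summed to 1032 CPM against 184 to 348 and progenitor markers to 745 CPM against 39.0 to 323. Within the astrocyte list Slc1a2 went the other way, at 71.3 CPM in this library against 104 to 168. The other genes of that list were above their range in the other 11, with Gfap at 598 CPM against 40.5 to 185. The oligodendrocyte lineage list summed to 555 CPM there, against 24.4 to 171. Pdgfra was at 509 CPM against 2.28 to 152, Olig1 at 24.5 CPM against 1.24 to 4.75 and Olig2 at 11.9 CPM against 0 to 1.03. Sox10 had 9 counts in that library and 0 in the other 11, and the myelin gene Mbp was at 5.18 CPM against 9.70 to 14.9. Mesenchymal markers summed to 109 to 1110 CPM in the 6 WT and to 32.9 to 107 CPM in the 6 KO libraries. The labelled cell type was checked with its vesicular glutamate transporters: Slc17a6 was at 242 to 424 CPM in the 11 libraries and 51.7 CPM in KO inhibitor line 3, while Slc17a7, Tbr1 and Neurod6 of the forebrain lay between 0.541 and 2.07 CPM over the 12 libraries. The GABAergic marker Gad1 was also present, at 159 to 260 CPM in those 11 libraries. The main results that rest on KO inhibitor line 3 are given with and without it, and the part of other cell types in these results was not tested. In such bulk RNA, fewer neurons and less RNA per neuron cannot be told apart.

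By the deposited length-scaled levels, Grin1 was the most abundant subunit mRNA in every library. The lengths implied by these levels were 3.79 kb for Grin1 and 10.3 kb for Gria2, against coding lengths of 2.88 and 2.65 kb. KO inhibitor line 3 had 3661 counts for Grin1 and 3692 for Gria2, so the lead of Grin1 over Gria2 depends on the length used. Levels are given here as cRPKM, the deposited read levels scaled to gene length and library size, as the mean ± SD of the 3 WT vehicle lines. Grin1 was at 118 ± 3.29 cRPKM, and the AMPA subunits Gria4 (39.8 ± 8.53), Gria2 (33.2 ± 10.5) and Gria1 (31.6 ± 2.75) followed. Gria3 stood at 14.4 ± 2.41 cRPKM and Grin2d at 13.7 ± 0.617 cRPKM. Below them were Grin3a at 11.6 ± 0.856 cRPKM, Grin2b at 7.01 ± 0.602 and Grin2a at 6.69 ± 1.13. Grin2c, a subunit best known from cerebellar granule cells, was near the bottom of the range at 0.237 ± 0.0586 cRPKM, with 13 to 44 counts in a library. Neighbours in this order did not differ beyond their SD for Gria4 and Gria2, Gria2 and Gria1, Gria3 and Grin2d, and Grin2b and Grin2a. Gria4 was nevertheless above Gria2 in 12 of 12 libraries, whereas Gria2 was above Gria1 in 6 of 12 and Grin2b above Grin2a in 5 of 12.

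**Figure D1:**
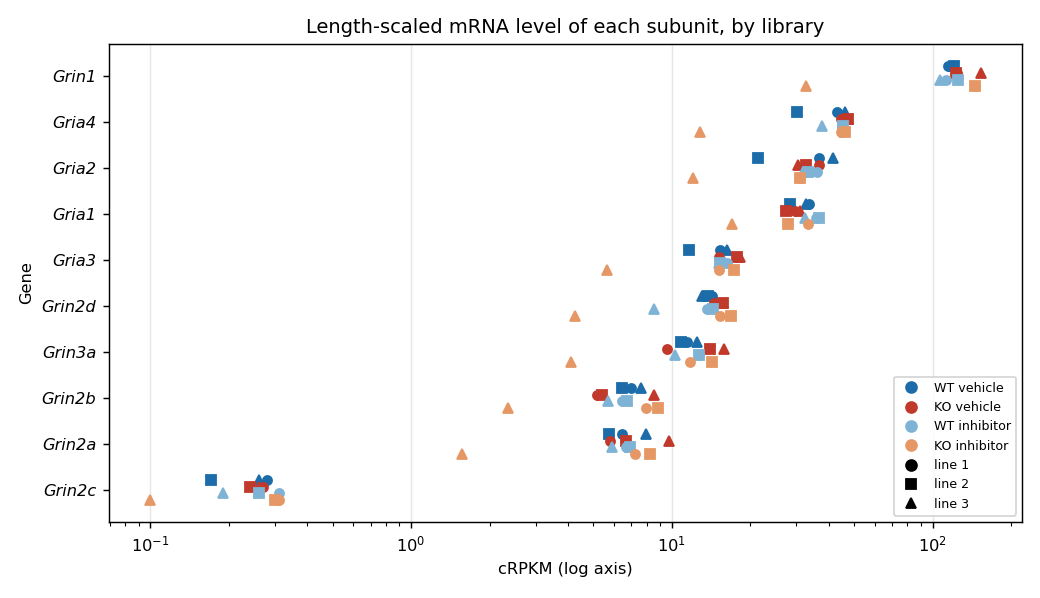
Length-corrected level of each subunit in cRPKM on a log axis, with 1 point per library, colour for the group and marker shape for the cell line. Grin1 lies above the others in every library, Grin2c lies lowest, and KO inhibitor line 3 is the leftmost point for each of the 10 genes.

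The length used decides the order among the Grin2 subunits. The cRPKM values follow from a length close to the longest annotated transcript, which is 24.1 kb for Grin2b, 14.6 kb for Grin2a and 5.43 kb for Grin2d, while their coding lengths are 4.45, 4.39 and 3.97 kb. By cRPKM, Grin2d supplied the largest part of the summed Grin2 mRNA in 12 of 12 libraries, with a median share of 50.6%, and Grin2b a median of 24.9%. By count per coding kilobase, Grin2b was the largest in 12 of 12 libraries, with a median share of 47.8%, and Grin2d had 24.3%. Grin2a kept a similar median share on both scales, 24.0% and 28.8%. Among AMPA subunits Gria4 had the largest cRPKM in 11 of 12 libraries, while Gria2, with a longest transcript of 10.4 kb, was the largest in 12 of 12 by count per coding kilobase. Which transcript ends the neurons use was not tested, so the order between these genes depends on the scale. Differences of 1 gene between libraries do not.

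Levels in single libraries are given next in CPM, which carry no length and are compared only within a gene. Gria2, the subunit that limits calcium entry, was at 370.0, 227 and 419.8 CPM in WT vehicle lines 1 to 3 and at 388, 340.0 and 321 CPM in KO vehicle. With inhibitor it was at 369, 346 and 332 CPM in WT and at 317, 325 and 117 CPM in KO. The genotypes overlapped in vehicle, where WT line 2 was low, and did not overlap with inhibitor, where the 3 KO libraries were below the 3 WT libraries and line 3 was far below. Gria1, the AMPA subunit best known for activity-dependent insertion at synapses, was at 179, 161 and 176 CPM in WT vehicle and at 168, 151 and 173 CPM in KO vehicle. It was at 195, 203 and 178 CPM in WT inhibitor and at 181, 155 and 87.7 CPM in KO inhibitor. The genotypes overlapped in both treatments for Gria1.

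Gria3, a subunit that pairs with Gria2, was at 76.2, 61.5 and 81.6 CPM in WT vehicle and at 80.2, 91.8 and 95.3 CPM in KO vehicle. With inhibitor it was at 82.8, 79.5 and 78.0 CPM in WT and at 76.9, 90.0 and 27.1 CPM in KO. The vehicle groups overlapped only through KO line 1 and WT line 3. Gria4, a subunit of fast AMPA receptors, was at 223, 165 and 240.1 CPM in WT vehicle and at 242, 253 and 255 CPM in KO vehicle. With inhibitor it was at 238, 243 and 201 CPM in WT and at 234, 247 and 64.0 CPM in KO. In vehicle the 3 KO libraries of Gria4 were above the 3 WT libraries, by a small margin over WT line 3, and with inhibitor the groups overlapped.

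Grin1, the subunit every NMDA receptor needs, was at 423, 471 and 445 CPM in WT vehicle and at 485, 467 and 593 CPM in KO vehicle. With inhibitor it was at 427, 478 and 409 CPM in WT and at 547, 556 and 116 CPM in KO. KO inhibitor lines 1 and 2 were above each WT library, and KO line 3 was below each of them. Grin2a, the Grin2 subunit of mature forebrain synapses, was at 91.4, 86.1 and 113 CPM in WT vehicle and at 87.1, 97.9 and 145 CPM in KO vehicle. It was at 97.2, 102 and 86.3 CPM in WT inhibitor and at 105, 121 and 21.6 CPM in KO inhibitor. Grin2b, the Grin2 subunit with the slower channel kinetics of young synapses, was at 163, 159 and 180.0 CPM in WT vehicle and at 127, 129.7 and 209 CPM in KO vehicle. It was at 154, 163 and 137 CPM in WT inhibitor and at 189, 215 and 53.1 CPM in KO inhibitor. The vehicle groups of Grin2a overlapped, with KO line 3 highest, and those of Grin2b had KO lines 1 and 2 below and line 3 above the WT libraries. With inhibitor, KO lines 1 and 2 were above and line 3 below the WT libraries for both genes.

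Grin2d, a subunit with little magnesium block, was at 75.0, 76.2 and 68.8 CPM in WT vehicle and at 80.4, 84.8 and 86.2 CPM in KO vehicle. It was at 72.9, 78.6 and 46.3 CPM in WT inhibitor and at 82.1, 92.3 and 21.6 CPM in KO inhibitor. The vehicle groups of Grin2d did not overlap, with KO above WT. Grin3a, which lowers the calcium flux of NMDA receptors, was at 83.2, 83.2 and 91.6 CPM in WT vehicle and at 73.2, 105 and 120.2 CPM in KO vehicle. It was at 93.9, 95.7 and 77.2 CPM in WT inhibitor and at 86.6, 108 and 28.7 CPM in KO inhibitor. Grin2c ranged from 0.414 to 1.31 CPM over the 12 libraries, with no group clear of another. KO inhibitor line 3 was the lowest of the 12 for all 10 genes, from 2.01-fold below the median of the other 11 for Gria1 to 4.54-fold below it for Grin2a. Of all 15443 genes tested, 39.0% were lowest in that library.

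**Figure D2:**
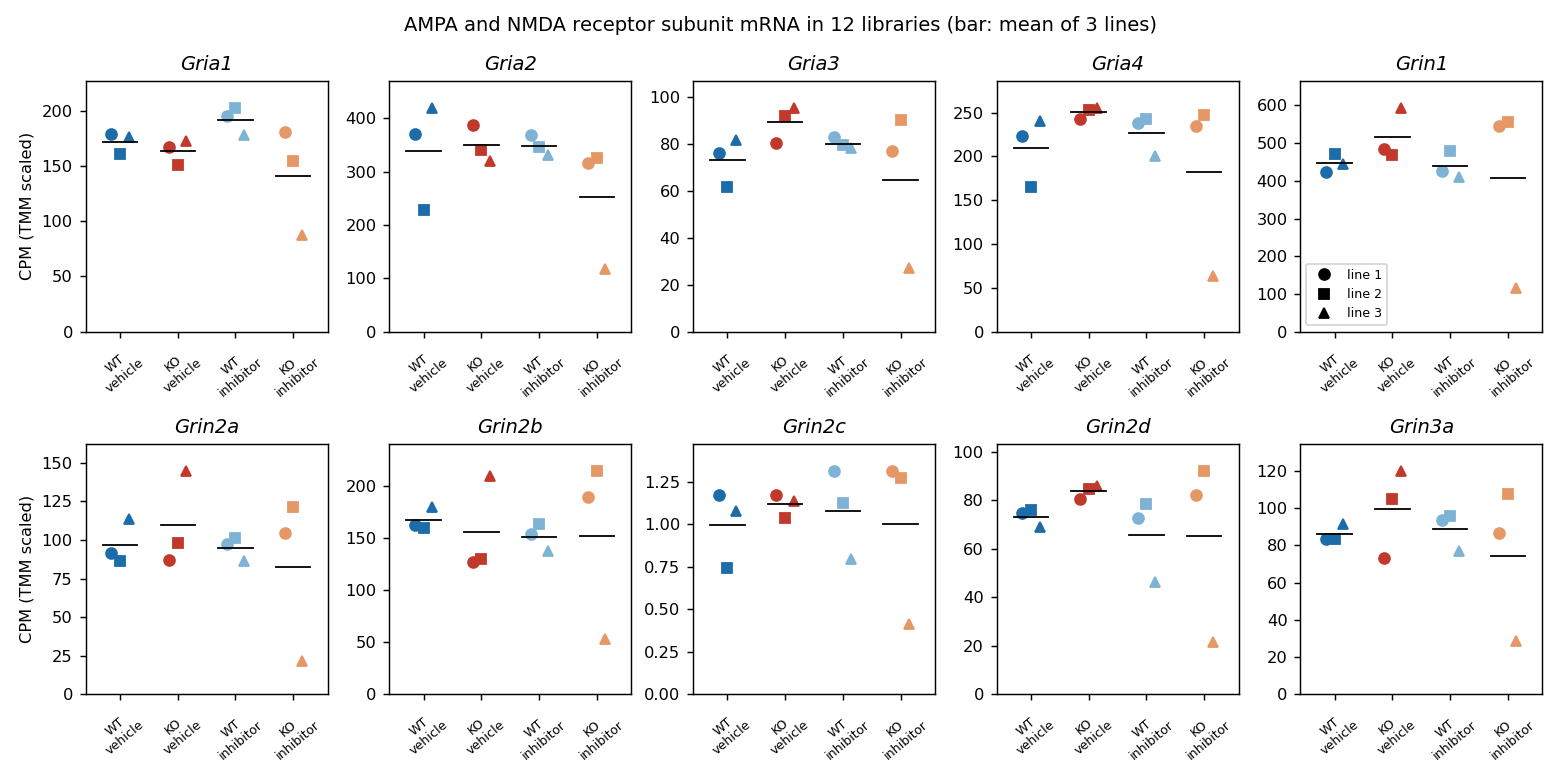
CPM of each subunit by group, with 1 marker per library, marker shape for the cell line and a bar at the mean of 3. The markers of KO inhibitor line 3 lie below all others for each gene, KO lies clear above WT in vehicle for Gria4 and Grin2d, and clear below WT with inhibitor for Gria2.

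The Grin2a to Grin2b ratio was higher in every KO than in every WT library in vehicle and lower with inhibitor, and neither difference passed the test. In WT vehicle lines 1 to 3 the cRPKM ratio was 0.924, 0.890 and 1.04, and in KO vehicle it was 1.13, 1.24 and 1.14. With inhibitor it was 1.04, 1.03 and 1.04 in WT and 0.912, 0.932 and 0.668 in KO. The groups did not overlap in either treatment. How many other gene pairs have ratios that separate in this way was not counted, so no result is read from the separation. The log2 difference of KO from WT was 0.30 in vehicle (exact permutation test over 3 against 3 lines, two-sided p = 0.1) and -0.32 with inhibitor (exact p = 0.1). A p of 0.1 is the smallest that 3 against 3 can give, and both were 0.833 after Benjamini-Hochberg adjustment over 25 ratio tests. Without KO inhibitor line 3 the difference with inhibitor was -0.17.

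Within lines, the log2 ratio with inhibitor minus vehicle was 0.17, 0.20 and -0.0038 in WT lines 1 to 3 and -0.30, -0.41 and -0.77 in KO lines 1 to 3. The KO response was below the WT response by 0.62 on the log2 scale (exact permutation p = 0.1), and without KO line 3 the difference was -0.48. In KO lines 1 and 2 the log2 level with inhibitor minus vehicle was 0.57 and 0.73 for Grin2b, and 0.27 and 0.31 for Grin2a. In KO line 3 both were far lower with inhibitor, at -1.98 for Grin2b and -2.75 for Grin2a. Averaged over each line, the ratio differed by -0.01 between genotypes (exact permutation p = 1). Over the 6 lines paired, inhibitor against vehicle gave -0.19, with 2 of 6 lines up (exact sign-flip permutation p = 0.281). Without KO line 3 it was -0.07 (exact permutation p = 0.562). In raw counts the ratio ran from 0.406 to 0.755, and per coding kilobase from 0.411 to 0.764, because the annotated Grin2b transcript is longer. The differences between libraries do not depend on that length.

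**Figure D3:**
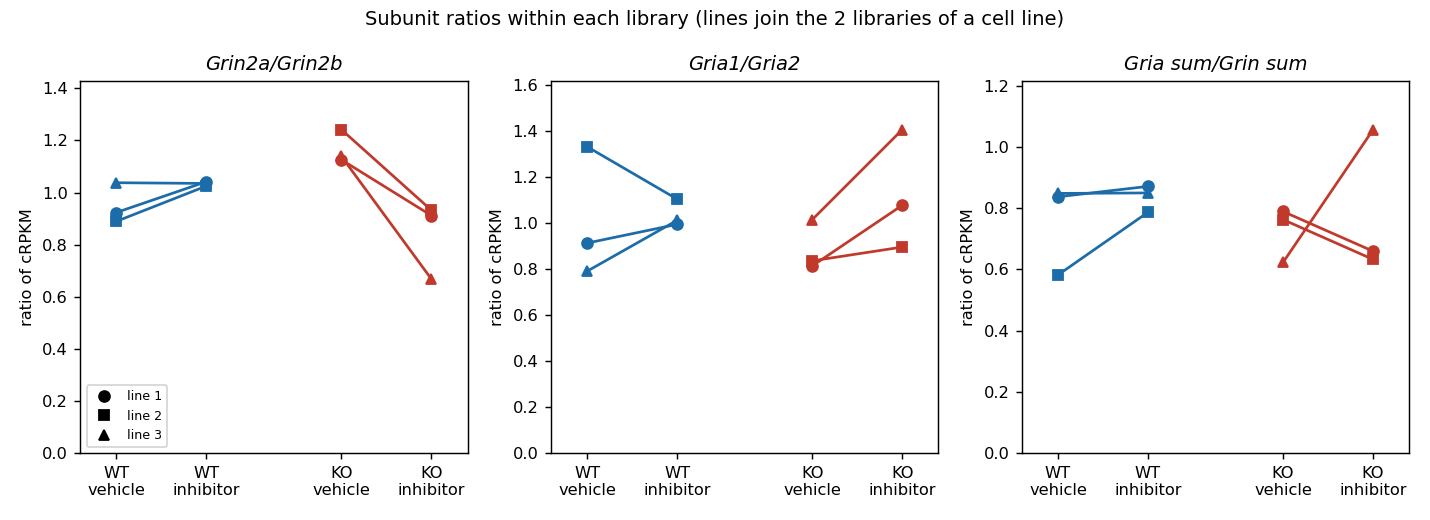
cRPKM ratios of Grin2a to Grin2b, Gria1 to Gria2 and the AMPA sum to the NMDA sum, with vehicle and inhibitor libraries of a line joined, WT in blue and KO in red. In the first panel the KO lines go from 1.13, 1.24 and 1.14 to 0.912, 0.932 and 0.668, and WT lines stay between 0.890 and 1.04.

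The other subunit ratios overlapped more. Gria1 to Gria2 was 0.914, 1.33 and 0.792 in WT vehicle, 0.815, 0.837 and 1.02 in KO vehicle, 0.996, 1.10 and 1.01 in WT inhibitor and 1.08, 0.897 and 1.41 in KO inhibitor. The ratio of the 3 other AMPA subunits to Gria2 ranged from 2.30 to 3.29 over the 12 libraries, and that of Grin3a to Grin1 from 0.0769 to 0.125. For Gria1 to Gria2, the inhibitor minus vehicle difference was 0.20 over paired lines, with 5 of 6 lines up (exact permutation p = 0.156, adjusted 0.977), and 0.14 without KO line 3 (exact permutation p = 0.312). The AMPA sum over the NMDA sum was 0.837, 0.582 and 0.848 in WT vehicle and 0.789, 0.763 and 0.623 in KO vehicle. It was 0.871, 0.787 and 0.850 in WT inhibitor and 0.660, 0.633 and 1.06 in KO inhibitor. KO inhibitor line 3 was the highest of the 12 for this ratio and lines 1 and 2 were the lowest of the inhibitor libraries. The KO difference with inhibitor was -0.13 with that library and -0.37 without it (exact permutation p = 0.6 and 0.1, the latter the smallest that 2 against 3 can give). None of the 25 ratio tests passed after adjustment. All values in this paragraph are ratios of cRPKM, and their level depends on the gene lengths used. Per coding kilobase, Gria1 to Gria2 ran from 0.409 to 0.727 over the 12 libraries, and the 3 other AMPA subunits to Gria2 from 1.16 to 1.67. The AMPA sum over the NMDA sum then ran from 0.870 to 1.55, so which class is larger depends on the scale.

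The question whether loss of the microexon changed receptor mRNA was tested with edgeR's quasi-likelihood test in 1 fit of 12 libraries, with Benjamini-Hochberg adjustment over 15443 genes. In vehicle, 8 of the 10 subunits had positive and 2 had negative log2 fold changes, with a median of 0.19 against -0.01 over all genes, and none passed the test. The pan-neuronal marker sum was also higher in the KO vehicle libraries, at 6408 to 6799 CPM against 4855 to 6258 in WT vehicle, as was the GABAergic sum, at 569 to 649 against 453 to 489 CPM. The part of these markers in the subunit values was not tested. Gria3 was at 0.28 ± 0.34 (SE), Gria4 at 0.26 ± 0.40 and Grin3a at 0.21 ± 0.38 (edgeR adjusted p = 0.999 each). The other 7 lay between -0.11 for Grin2b and 0.21 for Grin1. In vehicle, edgeR called 0% of all genes, 1.99% had an unadjusted p under 0.05 (307 genes, none a member), and DESeq2 called 11 genes and no member. Gria4 and Grin2d were higher in all 3 KO libraries than in all 3 WT libraries, and 7.62% of all genes separated in that direction and 4.9% in the other.

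With inhibitor, 9 of the 10 subunits had negative log2 fold changes for KO against WT, with a median of -0.23, and again none passed. Gria1 was at -0.44 ± 0.22, Gria2 at -0.46 ± 0.35 and Gria3 at -0.31 ± 0.34 (edgeR adjusted p = 0.856 each). edgeR called 0% of all genes in this comparison, 3.5% had an unadjusted p under 0.05 (540 genes, none a member), and DESeq2 called 18 genes and no member. Gria2 was the 1 member that did not overlap, lower in KO, where 7.03% of all genes separated as lower and 3.51% as higher. Without KO inhibitor line 3 the median turned to 0.19, with 8 members positive and 2, Gria1 and Gria2, negative. In that fit of 11 libraries Grin1 was at 0.33 ± 0.11 with inhibitor (edgeR unadjusted p = 0.016, adjusted 0.502), beside Grin2b at 0.42 ± 0.20 and Grin2d at 0.41 ± 0.18. Of all genes, 9.5% had an unadjusted p under 0.05 there, so that 1 of 10 members is near that share.

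In vehicle the estimates hardly moved when KO inhibitor line 3 was left out of the fit, while their errors shrank: Gria3 kept 0.28 with an SE of 0.11 (edgeR unadjusted p = 0.032, adjusted 0.566). Again 1 of 10 members was under 0.05 unadjusted, against 8.57% of all genes. Summing the vehicle and inhibitor counts of each line compared 3 KO with 3 WT lines. In these line sums 5 members were positive and 5 negative, the median was -0.0013, and none passed among 16090 genes. Gria1 was at -0.24 ± 0.13, Gria2 at -0.19 ± 0.23 and Grin2d at 0.11 ± 0.24 (edgeR adjusted p = 0.998 each). edgeR called 0% of genes, 2.65% had an unadjusted p under 0.05 (426 genes, none a member), and DESeq2 called 87 genes and no member. Gria1 was lower in all 3 KO line sums, as were 3.78% of all genes, and 5.18% were higher. Without KO line 3 the median was 0.15, and Grin1 was at 0.25 ± 0.07 (edgeR unadjusted p = 0.013, adjusted 0.328), where 13.1% of all genes had an unadjusted p under 0.05.

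**Figure D4:**
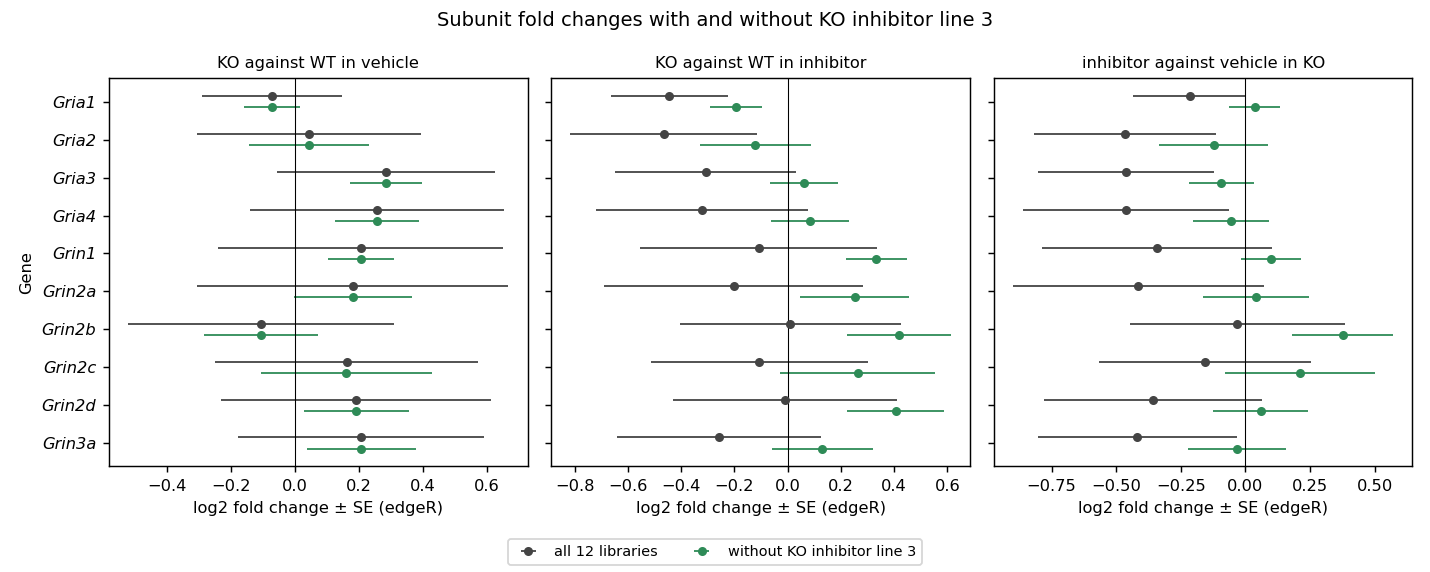
edgeR log2 fold change with its SE for each subunit in 3 comparisons, from all 12 libraries (grey) and without KO inhibitor line 3 (green). The vehicle estimates stay in place with smaller errors, and in the other panels the median goes from -0.23 to 0.19 and from -0.39 to 0.04.

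A 2-hour exposure to the inhibitor left no subunit past the threshold in either genotype. In WT, 6 members had positive and 4 negative log2 fold changes with a median of 0.05, led by Gria1 at 0.16 ± 0.22, Gria3 at 0.13 ± 0.34 and Grin2d at -0.15 ± 0.42 (edgeR adjusted p = 1.00 each). edgeR called 0% of genes in WT, 0.304% had an unadjusted p under 0.05 (47 genes, none a member), and DESeq2 called 0. No member was clear of overlap in WT, against 3.04% of all genes higher and 2.93% lower. Gria1 was the only member higher with inhibitor in all 3 WT lines, by 0.12, 0.34 and 0.02 on the log2 scale. The share of all genes that were higher in all 3 lines was not counted, so no result is read from this.

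In KO all 10 members were negative with a median of -0.39. Gria3 was at -0.46 ± 0.34, Gria2 at -0.47 ± 0.35 and Gria4 at -0.46 ± 0.40, with edgeR adjusted p of 0.518, 0.519 and 0.541. edgeR called 0% of genes in KO, 7.05% had an unadjusted p under 0.05 (1088 genes, none a member), and DESeq2 called 0. No member was clear of overlap, against 3.19% of all genes higher and 5.65% lower. Without KO inhibitor line 3 the median was 0.04, with 6 members positive, and 180 genes had an unadjusted p under 0.05.

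The difference between the genotypes in their response was negative for 9 of 10 members, with a median of -0.38. Gria3 was at -0.59 ± 0.48, Gria1 at -0.37 ± 0.31 and Gria4 at -0.58 ± 0.56 (edgeR adjusted p = 0.808 each). edgeR called 0% of genes, 1.2% had an unadjusted p under 0.05 (185 genes, none a member), and DESeq2 called 0. Without KO inhibitor line 3 the median was -0.0040, and Grin2b was at 0.52 ± 0.26 (edgeR adjusted p = 1.00).

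Set against the neuronal markers of the same library, the summed receptor mRNA in KO inhibitor line 3 was within or above the range of the other 11. The 4 AMPA genes summed to 19.4% of the pan-neuronal sum there, against 12.4% to 15.5% in the other 11 libraries, and the 6 NMDA genes to 15.8%, against 13.3% to 18.1%. Gria1 was at 5.74% of the pan-neuronal sum in KO inhibitor line 3, against 2.29% to 3.50% in the others. Gria2, Gria3, Gria4, Grin2b, Grin2c and Grin3a were likewise above their range in the other 11. Grin1 at 7.63% was inside its range of 7.11% to 9.70%, as was Grin2d. Grin2a at 1.41% was also inside its range, of 1.36% to 2.13%, but below 10 of the other 11 libraries. In vehicle the AMPA share was 14.7%, 12.6% and 14.7% in WT and 13.7%, 12.7% and 12.4% in KO, so the genotypes overlapped. With inhibitor the AMPA share was 14.8%, 14.0% and 15.5% in WT and 13.0%, 12.5% and 19.4% in KO, where lines 1 and 2 were below and line 3 above the WT libraries. The NMDA share was 14.5%, 18.1% and 14.4% in WT vehicle and 13.3%, 13.5% and 17.0% in KO vehicle. With inhibitor it was 14.1%, 14.8% and 14.8% in WT and 16.2%, 16.7% and 15.8% in KO, so that the 3 KO libraries were above the 3 WT libraries, with line 3 or without it. These shares were not tested, and how many of all genes separate when set against these markers was not counted. In CPM with inhibitor, 3.51% of all genes were higher in each KO than in each WT library, and 7.03% were lower.

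**Figure D5:**
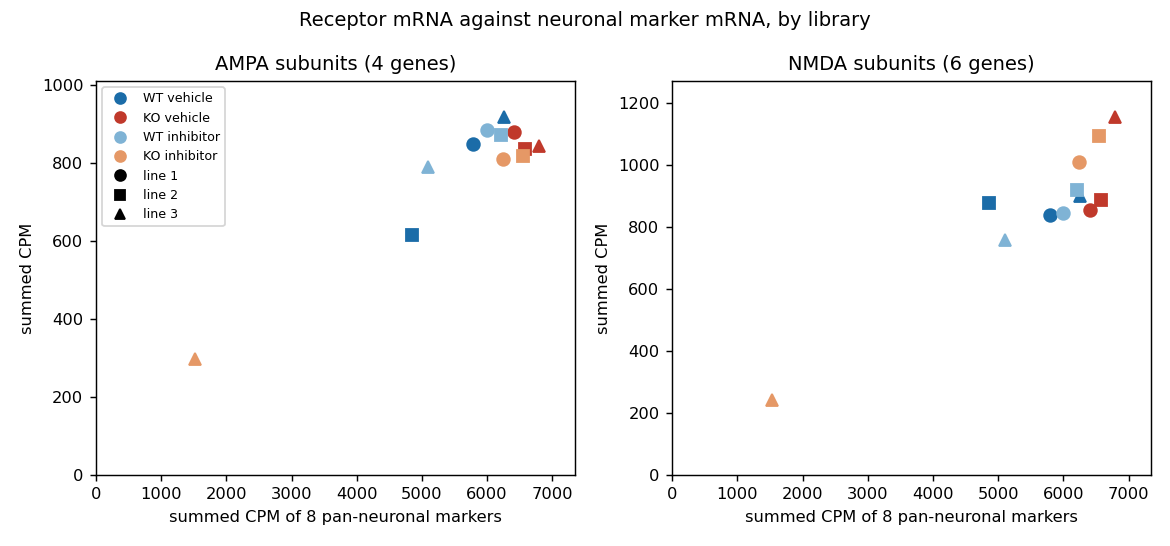
Summed CPM of the AMPA subunits (left) and NMDA subunits (right) against the summed CPM of 8 pan-neuronal markers, with 1 point per library. KO inhibitor line 3 sits at 1526 CPM of markers and the other 11 between 4855 and 6799.

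The genes that act with these receptors gave no call either. Among 8 other ionotropic glutamate receptor genes, led in level by the kainate receptor subunit Grik5, 5 were positive and 3 negative for KO against WT in vehicle and 0 and 8 with inhibitor. Of 19 genes for AMPA receptor auxiliary and assembly proteins 17 were matched and tested, and 9 were positive and 8 negative in vehicle against 1 and 16 with inhibitor. The most abundant of them was Nptxr, the neuronal pentraxin receptor, at 262 to 413 CPM in 11 libraries and 93.6 CPM in KO inhibitor line 3. The 7 metabotropic receptor genes tested, with Grm5 the most abundant, were 4 positive and 3 negative in vehicle and 0 and 7 with inhibitor. The 7 trafficking partners, led by the fusion ATPase Nsf, were 6 positive and 1 negative in vehicle and 0 and 7 with inhibitor. The 3 RNA editing enzymes, led by Adar, were 3 and 0 in vehicle and 0 and 3 with inhibitor. Over all genes the medians were -0.01 in vehicle and -0.0005 with inhibitor. Without KO inhibitor line 3 the counts with inhibitor were 5 positive and 3 negative for the other ionotropic receptors, 5 and 12 for the auxiliary proteins and 4 and 3 for the metabotropic receptors. They were 3 and 4 for the trafficking partners and 3 and 0 for the editing enzymes, with list medians from -0.03 to 0.12 against -0.05 over all genes. No list gene passed the test in that fit either. Of these lists, all tested genes but 1 auxiliary gene were lowest in KO inhibitor line 3, and edgeR called 0 of them in each of the 6 comparisons, with 0 at an unadjusted p under 0.05 over all 12 libraries.

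The subunits varied together across libraries mainly through KO inhibitor line 3. The median Pearson correlation of log2 CPM was 0.90 over the 6 AMPA pairs, 0.92 over the 15 NMDA pairs and 0.87 over the 24 pairs of an AMPA with an NMDA gene. Without that library the medians were 0.43, 0.57 and 0.24. These points share libraries and their cell makeup, and the correlations are descriptions. Of 13423 genes with a mean of at least 1 CPM, those most like Grin1 over 12 libraries were Dpp6 (r = 0.995), Clstn3 (0.994) and Syt2 (0.994). Without KO inhibitor line 3 they had r of 0.94, 0.95 and 0.92. Those most like Gria2 were Gm42372 (0.991), Cttnbp2 (0.987) and Lrrcc1 (0.987), with 0.95, 0.96 and 0.96 without it. Over all genes the median correlation over 12 libraries was 0.02 with Grin1 and 0.10 with Gria2. Without KO inhibitor line 3 it was -0.08 and -0.02. The named genes then ranked 17, 9 and 31 for Grin1 and 13, 6 and 8 for Gria2.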

How the data were processed

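PolyA RNA-seq was made from 12 libraries in 4 groups of 3 lines, per the labels. The authors deposited, for each library, a table of raw counts for 36902 genes, of which 3342 had no value. The same deposited tables hold a form of RPKM that the authors' table names call cRPKM, and its correction is not given in the sources used here. The submitters' processing notes name mm10, and the aligner and counter are not given in the sources used here. Counts were scaled by TMM and filtered with filterByExpr, and edgeR 4.0.16 (limma 3.58.1, R 4.3.3) was fitted to 12 libraries, and again to the summed counts of each line. Ratios used cRPKM and exact permutation tests. The threshold was an adjusted p of 0.05. The script was tested on simulated data. The pass condition used a smaller spread between libraries and larger changes than those of the members. It therefore does not show how small a change these data could detect. Levels of all members are named, with the 3 smallest p-values per comparison. Members and lists were chosen with earlier results of these data known. DESeq2 1.42.0, limma on log2(cRPKM + 0.1), other scaling, no filter, a replicate block and leaving out libraries were tried. Each line received both treatments, so the line numbers pair vehicle with inhibitor libraries by their labels. Their deviations correlated at 0.41, -0.55 and -0.72 in WT and -0.19, 0.57 and -0.37 in KO. Between WT and KO a shared number names different lines, and the correlations were 0.38, 0.65 and 0.80 with inhibitor and -0.35, -0.65 and 0.17 in vehicle. The pore sequence of Grin2b is not reported here.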

Additional observations from a re-analysis of the deposited data

How the results depend on the processing

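Of 931 alternative values, 344 and 525 were counted as unchanged, for the values that answer a comparison and for single genes and ratios. Some of these could not change or repeat each other. A ratio difference stays the same when a library outside its comparison is left out. For tests over lines, leaving out the vehicle or the inhibitor library of a line gave the same value. The tally is therefore no measure of how stable the results are. For single genes and ratios, unchanged meant the same direction and side of the threshold. The members' medians could change sign and still be counted as unchanged, where the shift was small. For inhibitor in WT their median went from 0.045 to -0.072 without WT vehicle line 2. No member passed the threshold in edgeR, limma or DESeq2 under any alternative run. The counts of called genes, 0 in the edgeR test, were 11 in vehicle, 18 with inhibitor and 87 in line sums by DESeq2, and 2 in line sums with no filter. With a replicate block the members' median was -0.59 for inhibitor in KO, where the block is the cell line. It was 0.20 in vehicle and -0.28 with inhibitor for KO against WT, where the block is a shared number that names different lines, and no call changed. Leaving out 1 library, the members' median ran from -0.55 to 0.19 for KO against WT with inhibitor, from -0.69 to 0.039 for inhibitor in KO and from -0.67 to -0.0040 for the difference in response, the last value of each without KO inhibitor line 3. Gria3 ran from -0.62 to 0.061 with inhibitor and from -0.0074 to 0.22 for inhibitor in WT, and Grin2d from -0.30 to 0.047 for inhibitor in WT and from -0.060 to 0.31 in line sums. For the log2 ratios, 1 library was left out, or 1 whole line for line means, responses and paired lines. The lowest and highest differences were these, of KO from WT except for inhibitor over paired lines. Grin2a to Grin2b over line means gave -0.075 and 0.076. Gria1 to Gria2 gave -0.32 and 0.057 in vehicle, -0.076 and 0.25 with inhibitor, -0.17 and 0.10 over line means. The other AMPA subunits to Gria2 gave -0.036 and 0.22 in vehicle, -0.082 and 0.12 in the response. Grin3a to Grin1 gave -0.14 and 0.15 in vehicle, -0.21 and 0.11 with inhibitor, -0.14 and 0.13 over line means, -0.14 and 0.10 in the response. The AMPA sum to the NMDA sum gave -0.22 and 0.059 in vehicle, -0.43 and 0.086 in the response, and -0.0067 and 0.20 for inhibitor over paired lines. With group medians, 4 small differences changed sign: 0.047 for Grin2a to Grin2b over line means, -0.056 for the other AMPA subunits to Gria2 in the response, and 0.043 and 0.082 for Grin3a to Grin1 in vehicle and over line means. The cause of these changes was not tested. With 3 lines a group an exact p cannot go below 0.1, and Grin2c rests on 13 to 44 counts. The related gene lists without KO inhibitor line 3 were added after seeing the data.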
